A study of Mus musculus with 4 samples.

Results

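Box H/ACA small nucleolar RNAs (symbols starting with Snora) and small Cajal body RNAs (symbols starting with Scarna) were followed through small RNA libraries of RAW264.7 cells and of the extracellular vesicles these cells release. A row of the count table was taken as a member when its transcript name mapped in GENCODE M21 to such a symbol and to the transcript type snoRNA or scaRNA. The rule found 50 rows among the 141239 of the table, 41 with a Snora symbol and 9 with a Scarna symbol; the annotation holds 51 by the same rule, and Snora19 is the one not analysed here. By type, 43 members were snoRNA and 7 scaRNA, since Scarna9 and Scarna10 are typed snoRNA. Snora16a and Snora43 each have 2 overlapping rows, told apart here by length.

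RAW264.7 is a mouse macrophage-like line. Cells carried either a non-silencing hairpin (shNS) or a hairpin directed against Dis3l2 (shDis3l2), the gene of a cytoplasmic 3′ to 5′ exoribonuclease that degrades RNAs with added uridines. Each hairpin was sampled in whole cells and in vesicles, so the 4 groups (cells labelled shNS, cells labelled shDis3l2, vesicles labelled shNS, vesicles labelled shDis3l2) hold 1 library each. All 4 groups received 1 µg/mL doxycycline for 3 days and again in the vesicle-depleted serum medium of the last 24 h, so no library is free of doxycycline. Per the labels' protocols, vesicles were taken from a sucrose gradient after differential centrifugation and treated with micrococcal nuclease, and the kit was built for miRNAs with reads of 50 nt. Members are longer than that, so a count stands for a fragment. The labels give no clone, passage or second hairpin for the lines.

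H/ACA RNAs fold into hairpins joined by a hinge that carries the H box, whose letters are ANANNA, and end in ACA shortly before the 3′ end. With the proteins dyskerin, Nop10, Nhp2 and Gar1 they direct the change of chosen uridines in rRNA to pseudouridine. Cajal body RNAs do the same for the spliceosomal snRNAs, some as H/ACA RNAs, some as box C/D RNAs that direct methylation, and some as composites of both. In vertebrates most H/ACA RNAs are cut out of the introns of protein-coding or non-coding host genes.

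The sequences of 5 H/ACA members named in the results are shown. Capitals mark the last ACA and, in the middle of the RNA, the ANANNA with the fewest paired bases in a fold predicted by RNAfold. In that fold 4 bases of the marked ANANNA are paired in Snora21, 3 in Snora31 and Snora28, and 0 in Snora17 and Snora23. The marked letters therefore need not be a hinge. Coordinates are on GRCm38 and letters are those of the GENCODE M21 transcripts, 5′ to 3′.
Snora21 (chr11:97781639-97781775, minus strand): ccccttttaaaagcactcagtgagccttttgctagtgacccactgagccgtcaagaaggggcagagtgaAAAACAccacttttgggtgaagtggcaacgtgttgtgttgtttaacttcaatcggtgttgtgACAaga
Snora31 (chr14:75847905-75848034, plus strand): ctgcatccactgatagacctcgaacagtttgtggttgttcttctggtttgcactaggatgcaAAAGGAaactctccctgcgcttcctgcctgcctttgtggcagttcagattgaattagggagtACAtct
Snora17 (chr2:26639190-26639321, minus strand): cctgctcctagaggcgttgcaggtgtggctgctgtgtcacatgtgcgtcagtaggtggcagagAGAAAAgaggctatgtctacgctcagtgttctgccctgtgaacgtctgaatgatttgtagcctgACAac
Snora23 (chr7:110046364-110046547, plus strand): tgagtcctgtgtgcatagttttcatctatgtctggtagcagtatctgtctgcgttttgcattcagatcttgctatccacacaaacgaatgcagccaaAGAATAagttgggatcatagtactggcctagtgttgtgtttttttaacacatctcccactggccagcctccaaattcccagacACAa
Snora28 (chr12:111540941-111541067, plus strand): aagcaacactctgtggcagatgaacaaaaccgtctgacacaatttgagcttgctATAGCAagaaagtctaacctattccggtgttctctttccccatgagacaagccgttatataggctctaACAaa

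Scarna9 is shown as the Cajal body member with the highest level per length in cells; capitals mark its C box (searched as ATGATGA or GTGATGA) and D box (CTGA). It is the shortest member, and its row in the annotation is 70 nt long.
Scarna9 (chr9:15326264-15326333, minus strand): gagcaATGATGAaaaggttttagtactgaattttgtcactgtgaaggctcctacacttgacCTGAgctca

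A match of letters is a description and no proof of a working box. Of the 41 Snora members, 39 (95.1%) had ACA within the last 9 bases, 34 (82.9%) had it exactly 3 bases before the end, and 38 (92.7%) had ANANNA between 35% and 65% of their length. Over the 84 box C/D snoRNAs of the table (symbols starting with Snord) the shares were 8.33%, 0% and 25%. Of the 9 Scarna members, 4 had the C box letters in the first 25 bases and 5 the D box letters in the last 15, against 63.1% and 92.9% of the Snord rows; Snora members had them in 0 and 3 cases. Letters were searched on the RNA's own strand only, and ANANNA is short enough to be met often: 76.2% of the 1280 snoRNA-typed rows with other symbols also held it there. Snora members were 121 to 205 nt long and Scarna members 70 to 414 nt.

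Depth was 17612856 to 19741041 estimated counts per library. The label was checked first on its target. Dis3l2 held 41 counts in the cells labelled shNS, 13232 in the cells labelled shDis3l2, 1713 in the vesicles labelled shNS and 1894 in the vesicles labelled shDis3l2. In cells the library labelled shDis3l2 was thus far above the library labelled shNS (log2 ratio 8.42), against its label, and in vesicles the difference was small (0.19), so every direction between the labels below compares libraries by label and no loss of Dis3l2 is assumed. Whether the cell labels are right, or reads of the hairpin construct enter the Dis3l2 count, was not tested. Macrophage markers had a count for 10 of 11 genes in each library, with a summed level of 10881 to 81048 CPM (counts scaled to the same library total); the Mir223 hairpin was at 0 in all 4. The erythroid and serum markers Mir451a and Mir144 held 4 and 5 counts in the cells labelled shNS, 376 and 477 in the vesicles labelled shNS, and 157 and 266 in the vesicles labelled shDis3l2. Hbb-bs, of the same list, held 4 and 5 counts in cells and went the other way between the vesicle labels, with 67 under shNS and 171 under shDis3l2. The summed level of the 4 markers of that list was 0.434 to 0.659 CPM in cells and 33.7 to 50.6 CPM in vesicles, with Hba-a1 at 0, and its part in the vesicle values of members was not tested. With 1 library a group there is no replicate error and no test. Intervals are exact conditional (Clopper-Pearson) 95% intervals of the ratio of 2 counts and cover counting error only.

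The members were a small part of each library, largest in cells labelled shDis3l2. They held 11454 counts (0.0580% of all) in the cells labelled shNS and 23638 (0.128%) in the cells labelled shDis3l2. In the vesicles they held 3272 (0.0180%) under shNS and 2831 (0.0161%) under shDis3l2. The sum was 2.21-fold higher (2.16 to 2.26) in the cells labelled shDis3l2 than in those labelled shNS, and 1.81-fold higher on the scale of counts outside miRNA hairpins. In vesicles it was 1.12-fold lower (1.06 to 1.18) under shDis3l2. Vesicles were 3.23-fold lower (3.10 to 3.35) than cells under shNS and 7.99-fold lower (7.68 to 8.31) under shDis3l2. In this bulk RNA, fewer molecules per cell and fewer cells or vesicles that hold them cannot be told apart.

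Of the 50 members, 48 had a count in some library. A count was present for 45 members in the cells labelled shNS, 42 in the cells labelled shDis3l2, 46 in the vesicles labelled shNS and 40 in the vesicles labelled shDis3l2. At least 100 counts were reached by 22, 26, 8 and 5 of them in the same order. The 2 members at 0 throughout were the 137 nt row of Snora16a and Snora35, which lies in the brain-expressed serotonin receptor gene Htr2c. A count of 0 allows up to 0.152 to 0.17 CPM here, from a floor of 3 counts per library. Another 11 members stayed under 100 counts in each pair of libraries compared and have no ratio: Scarna13, the 139 nt row of Snora43, Snora3, Snora5c, Snora26, Snora52, Snora61, Snora65, Snora70, Snora78 and Snora81. The other 37 have a ratio in 1 comparison or more.

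Levels between members are compared per length, as CPM per kilobase. In the cells labelled shNS, Scarna9 was at the top with 715, then Snora21 with 557 and Snora31 with 530. Its place rests on the division by its 70 nt row. By CPM alone Scarna9 (50.0) was below Snora21 (76.3), Snora31 (68.9), Scarna6 (54.9) and Scarna10 (54.2) there. By CPM in the cells labelled shDis3l2, Scarna9 (179) was below Snora21 (255) and Scarna10 (208). Whether counts of fragments scale with the length of the row was not tested. In human, Scarna9 is a box C/D guide of U2 snRNA, Snora21 guides 28S rRNA, and Snora31 is an rRNA guide from an intron of Tpt1. In the cells labelled shDis3l2 the scale per length gave 2555 for Scarna9, 1860.0 for Snora21 and 641 for Scarna10. Scarna10 is the composite RNA that guides U5 snRNA in human and is there called U85. Both vesicle libraries had another order. Snora17 led with 329 under shNS and 497 under shDis3l2, Snora57 followed with 161 and 103, and Snora21 came next with 91.9 and 84.1. By counts, Snora17 alone was 24.2% of all member counts in the vesicles labelled shNS and 40.8% in those labelled shDis3l2, and Scarna members made up 32.6% and 40.3% of member counts in cells and 19.8% and 16.1% in vesicles, shNS before shDis3l2.

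**Figure D1:**
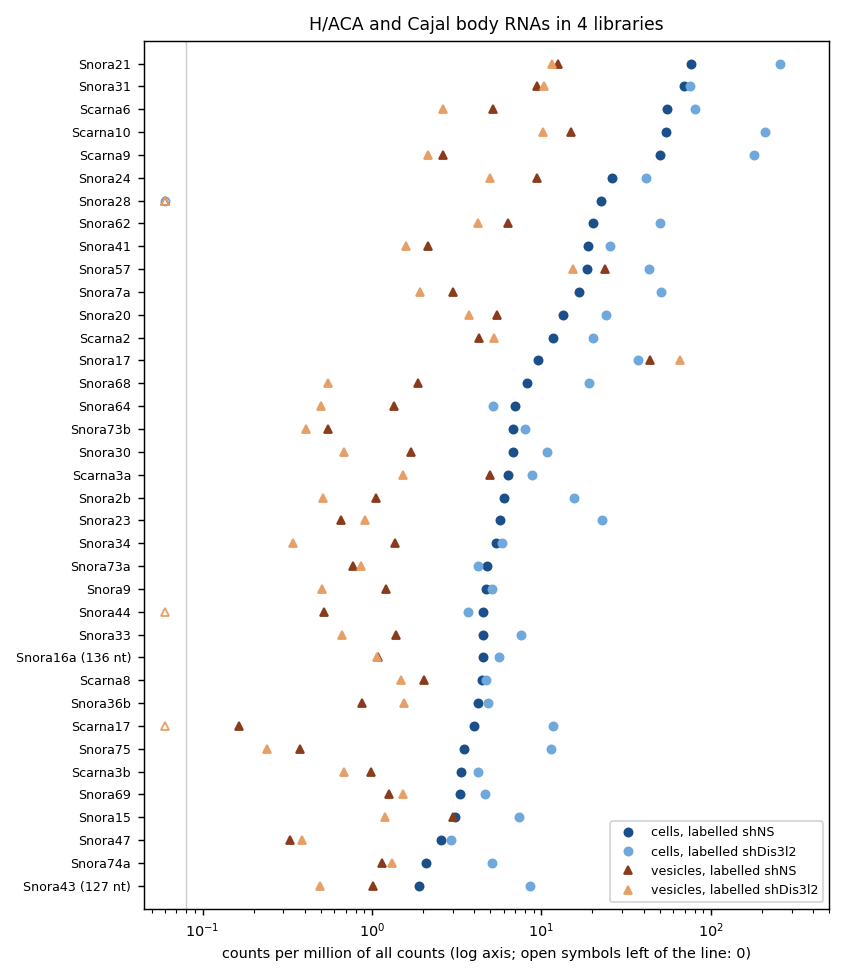
Level of the 37 members with at least 100 counts in a pair of libraries, in CPM of all counts on a log axis, with 1 point per library (circles for cells, triangles for vesicles; open symbols left of the line are 0). For most members the triangles lie left of the circles; Snora17 is the member whose vesicle points (43.5 and 65.6 CPM) both lie right of its cell points (9.54 and 37.3 CPM).

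The first comparison asks how the hairpin labels differ in cells. Of the 5 members with the most counts in the cells labelled shNS, not scaled by length, Snora21, Scarna10 and Scarna9 were 3.34-fold to 3.85-fold higher in the library labelled shDis3l2, Scarna6 was 1.47-fold higher and Snora31 was 1.10-fold higher. Of 37 members with at least 100 counts in the pair, 15 were apart upwards (at least 2-fold, with an interval that excludes 1) and 1 downwards, with a median log2 ratio of 0.67. Over all 3383 features tested, 13.8% were apart upwards and 5.03% downwards, and the median was 0.11. On the scale of counts outside miRNA hairpins, which lowers every log2 ratio by 0.29, 11 members were apart upwards and 1 downwards with a median of 0.38, against 9.22% and 9.9% of all features and a median of -0.18. On the total of box C/D snoRNAs, which lowers the log2 ratios by 0.42, 9 were apart upwards and 1 downwards, against 7.86% and 13.4% of all features. Of the 37 members, 34 had at least 50 counts in both libraries, and 3 passed the minimum through 1 library. The members share these libraries with all other features, and the call is set by the fold, so no more than the count is read from it.

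Among the rRNA guides, Snora21 stood at 76.3 CPM in the cells labelled shNS, 255 in the cells labelled shDis3l2, 12.6 in the vesicles labelled shNS and 11.5 in the vesicles labelled shDis3l2. The cell libraries differed 3.34-fold (3.15 to 3.54) and both vesicle libraries lay below both. Snora23, from an intron of the importin gene Ipo7, had 5.72, 22.7, 0.660 and 0.908 CPM in the same order and was 3.95-fold higher (3.21 to 4.93) in the cells labelled shDis3l2. Snora17 had 9.54, 37.3, 43.5 and 65.6 CPM, 3.90-fold higher (3.32 to 4.62) in those cells. Its lowest library was the cells labelled shNS, and both vesicle libraries lay above both cell libraries. Snora7a, a 28S guide held by an exon of a transcript of the ribosomal protein gene Rpl32, had 16.6, 50.7, 3.00 and 1.93 CPM and was 3.05-fold higher (2.69 to 3.47). Snora75, or U23, of the nucleolin gene Ncl, was lower in level with 3.47, 11.4, 0.377 and 0.241 CPM, and was 3.31-fold higher (2.52 to 4.44).

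Snora43 had the largest log2 ratio, 2.14, on its 127 nt row, from 38 to 158 counts; its 139 nt row, which contains it, held 11 and 10. The other members apart upwards in cells were Scarna10, Scarna9, Scarna17, Snora2b, Snora62, Snora74a, Snora15, Snora68 and Snora57, at log2 ratios of 1.21 to 1.94. Snora31 had 68.9, 75.6, 9.40 and 10.3 CPM. Its 1361 and 1393 counts in cells gave a 1.10-fold ratio, whose log2 interval of 0.02 to 0.24 holds no 2-fold difference; on the box C/D total its log2 ratio was -0.29. Snora24, an 18S guide in the host gene Snhg8, stood at 26.2 and 41.2 CPM, 1.58-fold higher (1.41 to 1.77). Snora64, or U64, a 28S guide, had the lowest ratio among measured members with counts in both cell libraries, at 7.01 and 5.17 CPM and 1.35-fold lower (1.04 to 1.78).

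Snora28, an 18S guide in an exon of transcripts of the translation factor gene Eif5, was the member apart downwards. It held 445 counts in the cells labelled shNS and 0 in the other 3 libraries, at least 138-fold lower in the cells labelled shDis3l2 by the floor of 3 counts. All of its letters also occur in Eif5 transcripts. Those whose exon holds it had 157 counts in the cells labelled shNS and 1527 in the cells labelled shDis3l2, so member and transcripts together went from 602 to 1527 counts, a log2 ratio of 1.44. The direction of Snora28 thus turns with the unit counted.

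The Cajal body RNAs differed among themselves in the cells. Scarna10 had 54.2, 208, 14.8 and 10.2 CPM in the order above, 3.85-fold higher (3.59 to 4.12) in the cells labelled shDis3l2. Scarna9 had 50.0, 179, 2.61 and 2.15 CPM, 3.57-fold higher (3.33 to 3.84). Scarna17, a box C/D guide of U12 and U4 in human, had 4.00, 11.6, 0.165 and 0 CPM, 2.89-fold higher (2.23 to 3.81). Those with a smaller ratio were Scarna2, a box C/D guide of U2 with its own promoter in human, at 11.8 and 20.1 CPM (1.71-fold, 1.45 to 2.02), and Scarna6, a composite guide of U5 called U88 in human, at 54.9 and 80.6 CPM (1.47-fold, 1.36 to 1.59). Scarna3a, an H/ACA RNA, reached 6.33 and 8.74 CPM (1.38-fold, 1.09 to 1.76). Scarna3b had 3.34 and 4.24 CPM (1.27-fold, 0.901 to 1.79), and Scarna8, an H/ACA guide of U2 called U92 in human, had 4.46 and 4.72 CPM (1.06-fold, 0.779 to 1.44). The intervals of Scarna3b and Scarna8 include 1. Scarna10, with 14.0% of its 25-base words found in no other gene, and Scarna9, with 100%, were on the same side.

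Of the RNAs of pre-rRNA processing, Snora74a was apart upwards in cells on all counts, and Snora73a and Snora73b were not apart. Snora73a and Snora73b are copies of U17, which acts in the cleavage of pre-rRNA and guides no known modification. Snora73a had 4.78, 4.23, 0.770 and 0.859 CPM and Snora73b 6.83, 7.95, 0.553 and 0.410 CPM. Snora73a was 1.12-fold lower (0.824 to 1.54) and Snora73b 1.16-fold higher (0.911 to 1.48) in the cells labelled shDis3l2, and both intervals include 1. Snora74a, or U19, had 2.08, 5.08, 1.15 and 1.31 CPM and was 2.44-fold higher (1.69 to 3.64). Its 41 and 94 counts passed the minimum through the cells labelled shDis3l2, so it had to be higher there. None of its 25-base words was unique. On counts outside miRNA hairpins it was 1.996-fold higher (1.38 to 2.98) and not apart.

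**Figure D2:**
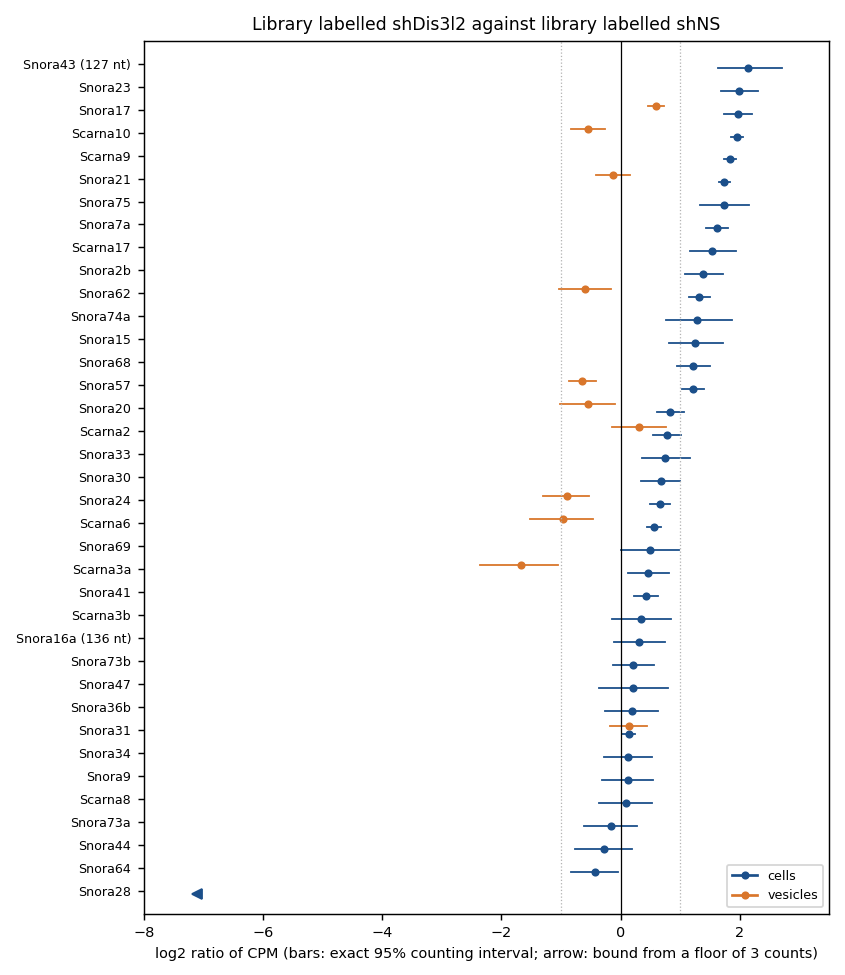
Log2 ratio of CPM between the library labelled shDis3l2 and the library labelled shNS, in cells (37 members) and in vesicles (11 members); bars are exact 95% counting intervals, dotted lines mark 2-fold, and the arrow is the bound for Snora28 at 0 counts. In cells the points run from -0.44 to 2.14 apart from Snora28; in vesicles they run from -1.67 to 0.59.

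In vesicles few members had the counts for a ratio between the labels, and none of these was 2-fold higher under shDis3l2 on all counts; on the box C/D snoRNA total, which raises each log2 ratio by 0.60, 1 was, against 42.1% of all features, and 1 was lower, against 0.853%. Of 11 members measured, 0 were apart upwards and 1 downwards, and the median log2 ratio was -0.55; over the 8436 features tested 10.4% and 2.52% were apart and the median was 0.31. On counts outside miRNA hairpins, which lowers each log2 ratio by 0.15, 3 members were apart downwards, against 8.46% upwards and 3.57% downwards of all features. Scarna3a was lower on both scales, at 4.95 and 1.53 CPM (90 and 27 counts), 3.19-fold lower (2.08 to 5.16) under shDis3l2. On counts outside miRNA hairpins Scarna6 (94 and 46 counts) was 2.18-fold lower (1.52 to 3.19) and Snora24 (171 and 88 counts) 2.08-fold lower (1.60 to 2.72). On all counts Scarna6 and Snora24 were 1.97-fold and 1.88-fold lower. Of the 11 members, 9 had at least 50 counts in both libraries. Scarna3a and Scarna6 had under 50 under shDis3l2 and passed the minimum through shNS, so they had to be lower. Snora17 was the one member above 1 whose interval excluded 1, 1.51-fold (1.38 to 1.65). Snora31, at 9.40 and 10.3 CPM, and Snora21, at 12.6 and 11.5 CPM, had intervals that include 1.

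The label ratios of the same members can be set side by side in both compartments, which rest on different libraries. The log2 ratio in vesicles minus that in cells was negative for 10 of 11 members, with a median of -1.56 on all counts; intervals of these differences use the normal approximation on the log scale. For 9 it was at least 2-fold lower with a counting interval that excludes 0, and for 0 higher, where 14.3% and 12% of 2620 features were; on the box C/D total the counts were 2 lower and 1 higher, against 4.2% and 52.1% of features. Scarna10 had the largest difference, -2.49 (-2.78 to -2.20), from 1.94 in cells and -0.55 in vesicles. Scarna3a (-2.14), Snora62 (-1.92), Snora21 (-1.87) and Snora57 (-1.85) came next. Scarna2 (-0.47, -0.97 to 0.02) and Snora31 (0.00, -0.32 to 0.32) were the members not apart. The other small nuclear and nucleolar classes lay on the same side: the median difference was -1.08 for 54 box C/D snoRNAs and -1.44 for 23 snRNAs, against 0.01 over all 2620 features.

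Vesicles were then compared with cells under each label, to see which members were found outside the cell. Nearly all members measured were lower in vesicles on all counts, Snora17 being above cells under both labels; on the scale of the box C/D total most were higher. Under shNS, 28 members were measured, 1 was apart upwards and 24 downwards, and the median log2 ratio was -1.99. Of the 6830 features tested, 74.7% were apart upwards and 13.5% downwards, with a median of 2.19. Under shDis3l2, 32 members were measured, 0 apart upwards and 31 downwards with a median of -3.50, against 76.9% and 13% of 7357 features and a median of 2.42. Of those measured, only 13 of 28 and 9 of 32 had at least 50 counts in both libraries; 15 and 23 passed through the cell library and had under 50 in vesicles, so they had to be lower in vesicles, and the counts and medians describe the members measured and no others. On counts outside miRNA hairpins, which lowers the log2 ratios by 1.35 and 1.21, 0 members were apart upwards under either label and 26 and 31 downwards, where 45.4% and 55.8% of features were upwards and 19.9% and 17.7% downwards.

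Snora17 was 4.56-fold higher (3.89 to 5.38) in the vesicles labelled shNS than in the cells with that label and 1.76-fold higher (1.60 to 1.94) under shDis3l2. On counts outside miRNA hairpins its log2 ratios were 0.84 and -0.39, so its direction under shDis3l2 depends on the scale. Snora57 was 1.28-fold higher (1.11 to 1.47) under shNS and 2.82-fold lower (2.45 to 3.25) under shDis3l2, with a log2 ratio of -0.99 outside miRNA hairpins under shNS. Snora15, with 61 counts in cells and 55 in vesicles, was level under shNS (0.979-fold, 0.667 to 1.43) and 6.07-fold lower (3.89 to 10.3) under shDis3l2. These 3 members and Scarna3a, 1.28-fold lower (0.968 to 1.70) under shNS, were the ones not apart downwards there.

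At the other end, on all counts, Scarna9 was 18.8-fold lower (14.2 to 25.9) in vesicles under shNS and 81.8-fold lower (60.3 to 117) under shDis3l2. Scarna6 was 10.6-fold lower (8.59 to 13.3) and 30.6-fold lower (23.0 to 42.4). Scarna10, the composite RNA of like length, was 3.64-fold (3.19 to 4.18) and 20.4-fold lower (17.6 to 23.9). Scarna17 went from 214 counts in the cells labelled shDis3l2 to 0 in the vesicles, at least 68.2-fold lower by the floor of 3 counts. Snora31 was 7.32-fold lower (6.25 to 8.65) under shNS and 7.30-fold lower (6.27 to 8.59) under shDis3l2. Snora21 was 6.05-fold (5.27 to 6.99) and 22.1-fold lower (19.2 to 25.6). Both comparisons of a member share no library, and their gap is the label difference given above.

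**Figure D3:**
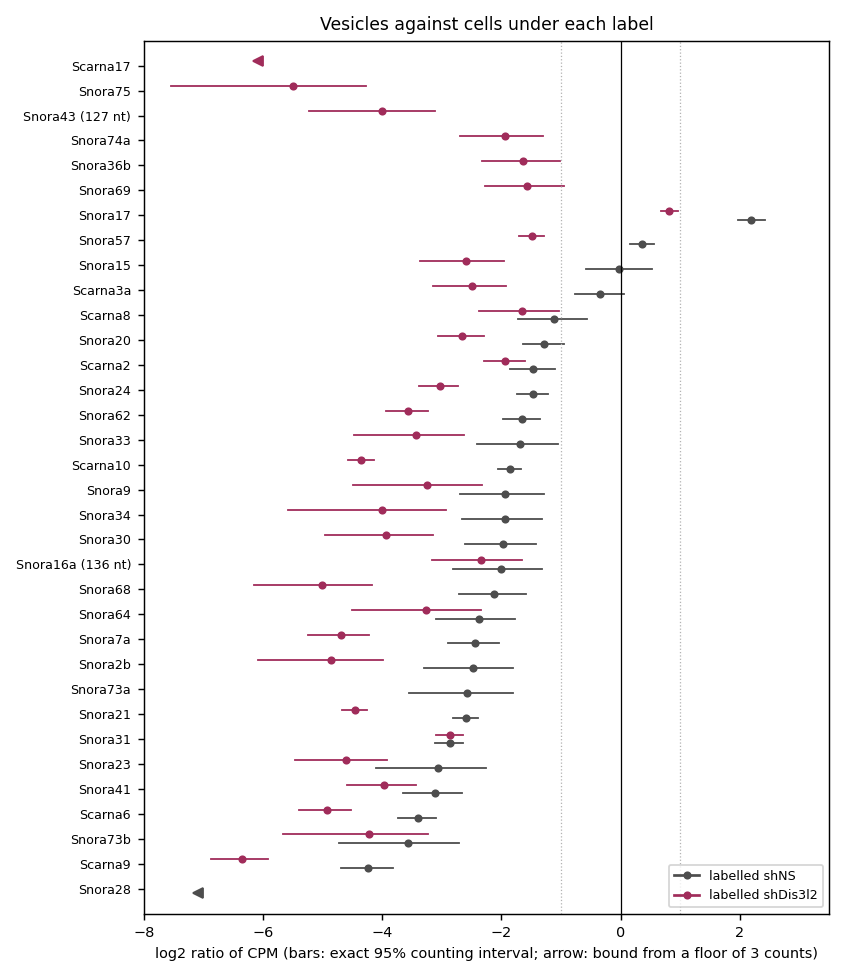
Log2 ratio of CPM between vesicles and cells for members measured under the label shNS (28) and under the label shDis3l2 (32); bars are exact 95% counting intervals, dotted lines mark 2-fold and arrows are bounds for a library at 0. Snora17 lies at 2.19 and 0.82, right of 0 under both labels, and Scarna9 at -4.23 and -6.35.

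Beside the classes most like them, the members lay between box C/D snoRNAs and snRNAs in the vesicle comparison. The median log2 ratio of vesicles to cells was -4.43 for 70 box C/D snoRNAs and 1.30 for 32 snRNAs under shNS, and -5.76 for 73 and -0.16 for 31 under shDis3l2. For genes of type snoRNA or scaRNA with other symbols it was -3.88 for 107 under shNS and -5.25 for 118 under shDis3l2. As sums, box C/D snoRNAs were 19.9-fold and 40.4-fold lower in vesicles, against 3.23-fold and 7.99-fold for the members; snRNAs were 1.43-fold higher and 2.15-fold lower, and 1.79-fold and 4.95-fold lower on counts outside miRNA hairpins. Scaling to the box C/D total raises the log2 ratios by 4.31 and 5.34, and on that scale 24 of the 28 members measured were at least 2-fold higher in vesicles under shNS and 20 of 32 under shDis3l2, while 1 and 2 were lower. Of all features 94.7% and 95.3% were higher and 2.05% and 1.32% lower on that scale, so the share of members higher was below the background under both labels. In the label comparison in cells the classes overlapped. The median was 0.50 for 75 box C/D snoRNAs, of which 27 were apart upwards, and 0.74 for 25 snRNAs, of which 10 were. It was 0.58 for 135 genes with other symbols, of which 48 were, where 13.8% of all features were.

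**Figure D4:**
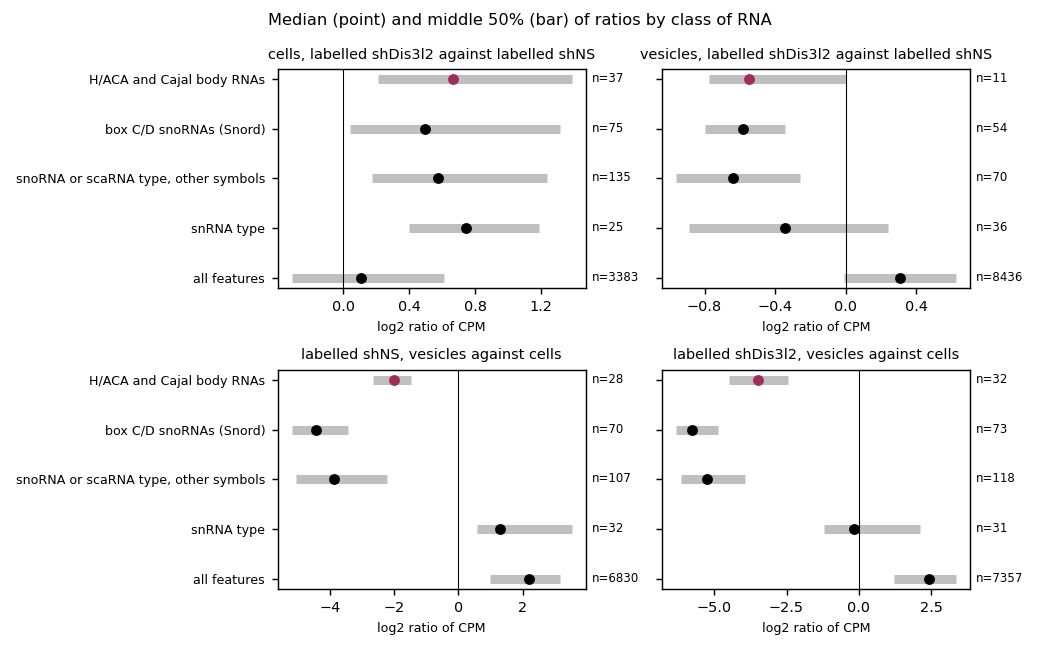
Median (point) and middle 50% (bar) of the log2 ratio of CPM by class of RNA in the 4 comparisons; n is the number of features with at least 100 counts in the pair, and each panel has its own axis. Members (red) lie near the other small nuclear and nucleolar classes in both label panels, at 0.67 in cells and -0.55 in vesicles, and between box C/D snoRNAs and snRNAs in both vesicle panels, at -1.99 and -3.50.

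Most members lie inside a longer gene on the same strand, and the transcripts of that gene can be set beside the member in vesicles and cells. Of the 50 members, 43 have such an enclosing gene, 11 of them in a ribosomal protein gene and 9 in a small nucleolar RNA host gene (Snhg). Members not wholly inside an exon of another transcript are called outside exons here. For these, 18 pairs of member and enclosing gene had at least 100 counts each in the shNS comparison of vesicles and cells. The gene's transcripts were apart upwards in 13 and downwards in 3, the member downwards in 16, and both the member downwards and the gene upwards in 12. Under shDis3l2 that was so in 16 of 20 pairs. Genes apart upwards were near the background of 74.7% and 76.9% of all features, so nothing about hosts is read from their count. The minimum also sets part of the contrast: under shNS 10 pairs had a member and 7 a gene with under 50 counts in 1 library, and under shDis3l2 15 and 10. With at least 50 counts in each library for both, 6 and 4 pairs were left, and the member was apart downwards with the gene upwards in 5 and 4 of them, among them Snora21 in Rpl23 and Snora31 in Tpt1. Snora31 (log2 ratio -2.87) lies in Tpt1 (3.93), Snora21 (-2.60) in the ribosomal protein gene Rpl23 (3.70), Snora41 (-3.12) in the elongation factor gene Eef1b2 (5.36) and Scarna10 (-1.87) in the condensin gene Ncapd2 (3.08), all under shNS. Snora73a (-2.59) and Snora73b (-3.57) in Snhg3 (-1.95), and Scarna3a (-0.35) in Cop1 (-1.19), were the pairs with a gene apart downwards. Eef1b2 and Ncapd2 held 17 and 26 counts in those cells, so their ratios passed through the vesicles. Some members outside exons still share 25-base words with transcripts of their gene. They include Scarna10 with Ncapd2, Snora15 with Cct6a, Snora2b with Kansl2 and Snora73a with Snhg3. In such pairs reads could be given to either. In the label comparison in cells 11 pairs were measured, with 4 members and 2 genes apart upwards, 0 of either downwards, and medians of 0.67 for both.

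For 20 members the whole sequence lies in an exon of another transcript on the same strand, in 19 of them one of a host gene, so reads could be given to either. All 20 reached 100 counts in cells once the transcripts that hold them were added, against 12 by their own counts. Of the sums, 12 were apart upwards between the labels and 0 downwards with a median of 1.10. Of the 12 by own counts, 5 were apart upwards and 1 downwards, where 13.8% and 5.03% of all features were. Those shares are for single genes and not for such sums. The sums are not separate units: both Snora16a rows share 96 and 173 containing counts, and Snora44 and Snora61 also lie in Snhg12. Some are nearly all host counts in cells, as for Snora26 and Snora81 (member share 0%) and Snora3 (2.1% and 0%). Snora24 went from 516 to 759 counts by itself and from 539 to 1594 with Snhg8. Snora7a was 1.62-fold higher (log2 ratio 0.70, 0.59 to 0.80) with Rpl32, in place of 3.05-fold, and is then not apart. Snora81, a member with 0 counts in cells, lies in a transcript of Eif4a2 with 853 and 4260 counts. The predicted miRNA hairpin inside Snora81, Gm49346, held 183 and 174 counts in cells. Snora3, with 20 and 0, lies in a transcript of Rpl27a with 920 and 3772. The 30 members outside exons gave 25 with a ratio, 10 apart upwards, 0 downwards and a median of 0.67.

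**Figure D5:**
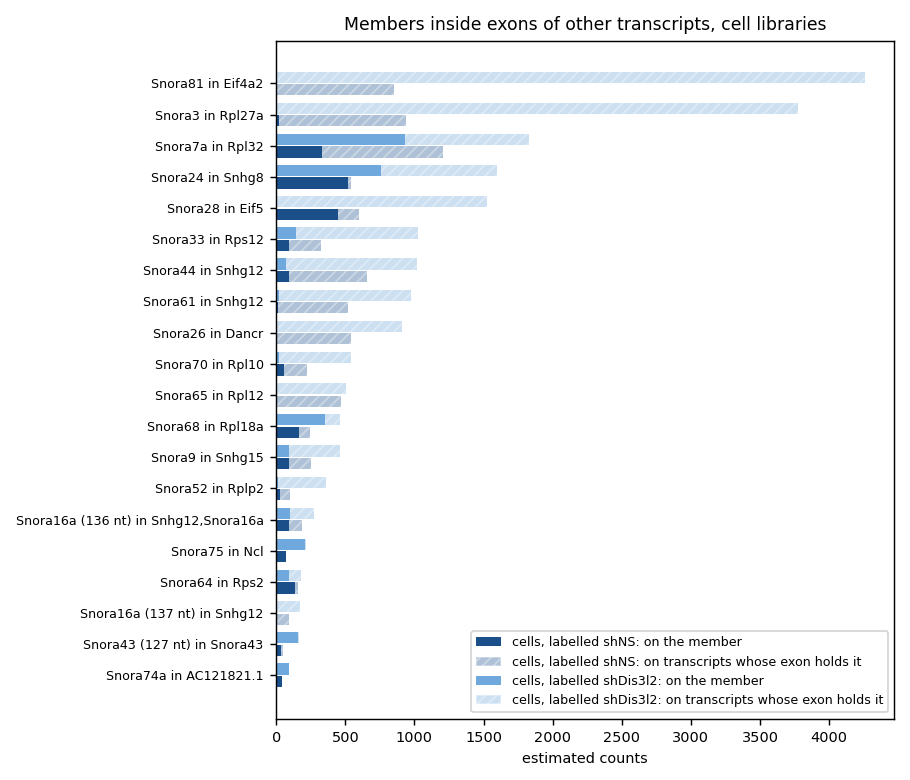
Estimated counts in both cell libraries for the 20 members inside exons of other transcripts, on the member itself (solid) and on the transcripts whose exon holds it (hatched). For Snora28 the solid bar is 445 counts in the cells labelled shNS and absent in the cells labelled shDis3l2, where the hatched bar is 1527.

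Some members also share letters with unnamed copies. Snora70, or U70, had 58 and 22 counts in the cell libraries, and 6 snoRNA-typed genes that share 25-base words with it had 265 and 1084, a log2 ratio of 2.13. For Snora73a the 5 genes of that kind had 367 and 507 counts beside its 94 and 78. For Snora17 there were 54 such genes, with 41, 120, 12 and 14 counts beside its 188, 686, 791 and 1156. In all, 12 members had each of their 25-base words in no other gene and 21 had none that was unique. Read counts could be split among such copies and other rows that share words, so the values of members with few unique words are uncertain. Besides Snora70, Snora73a and Snora73b, these include Scarna10 (14.0% unique), Snora15 (27.1%) and Snora2b (33.6%). For the 127 nt row of Snora43, Snora24 and Snora7a the share was 0%.

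There are 7 members with a miRNA hairpin inside, and these hairpins are rows of their own. Below are the whole members for 2 of them, with both miRNA arms in capitals (GRCm38, GENCODE M21 letters), then the mature miRNAs from RefSeq (GRCm38.p6) with the seed, bases 2 to 8, in capitals.
Snora36b (chr1:185242907-185243038, plus strand): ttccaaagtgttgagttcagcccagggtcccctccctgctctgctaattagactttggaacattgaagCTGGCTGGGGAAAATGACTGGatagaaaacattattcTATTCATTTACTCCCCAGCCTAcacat
Scarna3a (chr1:159340283-159340422, plus strand): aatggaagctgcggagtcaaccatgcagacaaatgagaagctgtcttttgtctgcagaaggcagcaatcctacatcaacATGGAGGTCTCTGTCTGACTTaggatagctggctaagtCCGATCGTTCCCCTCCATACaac
mmu-miR-664-5p (chr1:185242975-185242995, plus strand): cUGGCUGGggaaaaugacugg
mmu-miR-664-3p (chr1:185243012-185243033, plus strand): uAUUCAUUuacuccccagccua
mmu-miR-1843b-5p (chr1:159340362-159340382, plus strand): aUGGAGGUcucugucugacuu
mmu-miR-1843b-3p (chr1:159340400-159340419, plus strand): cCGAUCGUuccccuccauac
mmu-miR-1843a-5p (chr12:80391654-80391674, minus strand): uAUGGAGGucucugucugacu
mmu-miR-1843a-3p (chr12:80391615-80391636, minus strand): uCUGAUCGuucaccuccauaca

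The 6 seeds differ from each other; miR-1843a-5p begins 1 base before the letters it shares with miR-1843b-5p. In Snora36b the hairpin Mir664 held 1756, 1197, 339 and 382 counts in the order above, and the member 84, 89, 16 and 27. The hairpin was lower in the cells labelled shDis3l2 (log2 ratio -0.45, -0.56 to -0.35) and the member level (0.18, -0.26 to 0.63). In Scarna3a, Mir1843b held 442, 321, 185 and 127 counts and the member 125, 161, 90 and 27, with a hairpin ratio of -0.36 (-0.57 to -0.15) and a member ratio of 0.46 (0.12 to 0.81) in cells. In Scarna3b, Mir1843a held 510, 292, 214 and 54 and the member 66, 78, 18 and 12. In these 3 pairs the hairpin had more counts than its member in each library, and in cells the intervals of Scarna3a and its hairpin lie on opposite sides of 0. The other 4 are Mir3069 in Scarna13, Mir1291 in Snora34 (at most 1 count in a library) and 2 predicted hairpins in Snora74a and Snora81.

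Over the 37 members measured in cells, which share both libraries, Spearman's rho of the label ratio was 0.04 with length, -0.09 with GC content, 0.08 with the share of unique 25-base words and 0.47 with the summed counts of the pair. The summed counts include the shDis3l2 count, which is also the numerator of the ratio, so the 0.47 may be partly built in. These values describe the members and carry no test.

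The genes of the H/ACA machinery were thinly covered in these small RNA libraries. The 22 genes of the list cover the core proteins, assembly factors, Cajal body proteins and 3′ end trimming enzymes, and the telomerase RNA Terc, an H/ACA RNA of its own, which was at 0 in each library. Only the dyskerin gene Dkc1 reached 100 counts in cells, with 136 and 87 (log2 ratio -0.54, -0.95 to -0.15), and was not apart. In vesicles 11 genes were measured between the labels and 0 were apart in either direction, with a median of 0.31, that of all features. Between vesicles and cells 7 were measured under each label; 5 were apart upwards and 0 downwards, where 74.7% and 76.9% of all features were upwards. Under each label the 5 apart had under 50 counts in the cells with that label and so had to be higher in vesicles. Nhp2, Tgs1, Tent4b and Dis3 were apart under both labels, Zfc3h1 under shNS only and Exosc10 under shDis3l2 only. Nhp2, a core protein, stood at 1.01 and 7.59 CPM under shNS, and Dis3, the nuclear exosome nuclease, at 1.84 and 12.4 CPM. Gene lists of this kind were chosen with earlier results known, and the medians of 1.30 and 2.35 stand beside 2.19 and 2.42 over all features.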

How the data were processed

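Small RNA of 4 libraries, 1 per group, was analysed. The authors deposited estimated counts, 1 row for each annotated transcript; of the values above 0, 6.56% are whole within 0.001. Per the submitters' processing notes, cutadapt, Salmon and Novoalign were used with builds GRCm38 and mm10, with no versions stated; whether reads were collapsed by molecular tags is unknown here. Each count covers reads given to a row by estimation, so rows that share sequence can trade counts, and the low totals of most members widen their intervals. Rows were named from GENCODE M21; background features are genes, with members kept as rows, and estimated counts were rounded. Members and gene lists were chosen with earlier results of these data known.

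CPM used the total of all features or the total outside miRNA hairpins. The log2 ratio used a pseudocount of 0.5 counts and needed 100 counts in the pair; intervals of a ratio were exact conditional (Clopper-Pearson, 95%), and those of the difference of 2 label ratios used the normal approximation on the log scale. A library at 0 gave a bound from 3 counts. Each member was named by rule: the 8 largest ratios per direction, the 10 most abundant per length in each library, each Scarna with a ratio, Snora73a, Snora73b and Snora74a, and the 5 largest label differences; others were named after their values were seen. Code was tested on simulated counts. Alternatives used edgeR 4.0.16 and DESeq2 1.42.0 in R 4.3.3 for size factors only; other steps used Python 3.11.15, pandas 2.3.3, scipy 1.17.1 and RNAfold 2.7.2.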

Additional observations from a re-analysis of the deposited data

Results flagged for a closer look

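For 8 members the label ratio on all counts lay above 0 in cells and below 0 in vesicles. For 7 of them both counting intervals excluded 0. Snora21 is the other, with a vesicle ratio of -0.13 (-0.41 to 0.15). No share over all features is given for this pattern, so these counts describe the members only. Scarna3a and Scarna6, among the 7, had under 50 counts in the vesicles labelled shDis3l2. They passed the minimum through the vesicles labelled shNS, so their vesicle ratios had to be below 0. The vesicle ratio minus the cell ratio was below 0 for 10 of 11 members and 1288 of 2620 features. It was also below 0 for 53 of 54 box C/D snoRNAs and 21 of 23 snRNAs, so this side is not particular to the members. With 1 library per group the difference was not tested. The log2 ratio in vesicles minus that in cells was -2.49 for Scarna10, -2.14 for Scarna3a, -1.92 for Snora62, -1.85 for Snora57, -1.56 for Snora24, -1.53 for Scarna6 and -1.38 for Snora20. The counts behind the vesicle ratios ranged from 27 and 90 for Scarna3a to 269 and 434 for Snora57, shDis3l2 before shNS. On the box C/D total 4 of the 11 members compared lay above 0 in cells and below 0 in vesicles, while Scarna10 (0.06), Snora20 (0.05), Snora62 (0.00) and Snora21 (0.48) were at or above 0 in vesicles.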

How the results depend on the processing

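With 1 library per group, leaving out a replicate was not possible, and no result has a replicate check. No paired analysis was possible because each group holds 1 library. Of the single-member results under all alternatives, 1097 kept their direction and their side of the 2-fold limit. Another 61 fell inside the limit and 52 changed sign, 51 of these on the box C/D total. Results had to stay the same where a setting changed only the minimum, the set of members, the row unit or the limit to 1.5-fold. Those settings leave a member's ratio as it was, so the 1097 is no measure of stability. In the vesicle libraries 8 and 5 members reached 100 counts, at totals near those of the cell libraries, and this limits what can be compared there. Sums with transcripts whose exon holds a member, members outside exons and sums with snoRNA-typed copies were alternatives added after seeing the data. The causes of the changes below were not tested. Counts are given out of the members measured, with the share over all features for changes of scale. For other minimums, limits and sets of members no such share is given, so those counts describe the members only.

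In cells, 15 of 37 members were higher and 1 lower in the library labelled shDis3l2. On the box C/D total 9 of 37 were higher, against 7.86% of all features. The number higher was 6 of 9 with a minimum of 1000 counts and 1 of 37 with a limit of 4-fold. It was 6 of 13 among mostly unique members without a miRNA hairpin and 9 of 24 among members ending in ACA and 3 bases. The number lower was 4 of 45 with a minimum of 10 counts. It was 0 with a minimum of 1000 counts, among mostly unique members, among those ending in ACA and 3 bases, and outside exons. It was also 0 in sums with containing transcripts, where Snora28 had a log2 ratio of 1.44.

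In vesicles, 0 of 11 were higher and 1 lower. The number higher was 1 of 11 on the box C/D total, against 42.1% of all features, and 1 of 11 with a limit of 1.5-fold. It was 1 of 40 with a minimum of 10 counts and 1 of 26 in sums with containing transcripts. The number lower was 3 of 11 outside miRNA hairpins, against 3.57% of all features. It was also 3 of 11 with TMM factors, against 4.46%, and with DESeq2 size factors, against 3.96%. Without the 5 most abundant features it was 2 of 11, against 3.00%. It was 11 of 40 with a minimum of 10 counts, 5 of 11 with a limit of 1.5-fold and 2 of 26 in sums with containing transcripts. It was 0 with a minimum of 1000 counts, with a limit of 4-fold, among mostly unique members, among Snora symbols and among members ending in ACA and 3 bases.

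Between vesicles and cells under shNS, 1 of 28 was higher and 24 were lower. On the box C/D total 24 were higher and 1 lower, where 94.7% and 2.05% of all features were. The number higher was 3 of 46 with a minimum of 10 counts, and 0 outside miRNA hairpins, against 45.4% of all features. It was also 0 with a minimum of 1000 counts and among members ending in ACA and 3 bases. The number lower was 5 of 5 with a minimum of 1000 counts, 14 of 28 with a limit of 4-fold and 9 of 11 among mostly unique members. Under shDis3l2, 0 of 32 were higher and 31 lower. On the box C/D total 20 were higher and 2 lower, where 95.3% and 1.32% of all features were. The number higher was 2 of 43 with a minimum of 10 counts and 1 of 32 with a limit of 1.5-fold. The number lower was 6 of 7 with a minimum of 1000 counts and 11 of 12 among mostly unique members.

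For the difference of the label ratios, 9 of 11 were lower. On the box C/D total 2 were lower and 1 higher, where 4.2% and 52.1% of features were. The number lower was 23 of 39 with a minimum of 10 counts and 2 of 11 with a limit of 4-fold. It was 5 of 6 among members ending in ACA and 3 bases, and 19 of 26 in sums with containing transcripts. A minimum of 1000 counts left no member to compare.

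On the box C/D total the log2 ratio of vesicles to cells changed sign for the following members. Under shNS the values were Scarna10 2.45, Scarna2 2.85, Scarna6 0.91, Scarna8 3.19, Scarna9 0.08, Snora16a (136 nt) 2.31, Snora20 3.03, Snora21 1.72, Snora23 1.25, Snora24 2.84, Snora2b 1.83, Snora30 2.34, Snora31 1.44, Snora33 2.62, Snora34 2.37, Snora41 1.19, Snora62 2.66, Snora64 1.93, Snora68 2.20, Snora73a 1.73, Snora73b 0.74, Snora7a 1.87 and Snora9 2.38. Under shDis3l2 they were Scarna10 0.98, Scarna2 3.40, Scarna3a 2.85, Scarna6 0.40, Scarna8 3.68, Snora15 2.73, Snora16a (136 nt) 2.99, Snora20 2.67, Snora21 0.87, Snora23 0.74, Snora24 2.30, Snora2b 0.48, Snora30 1.40, Snora31 2.47, Snora33 1.91, Snora34 1.34, Snora36b 3.70, Snora41 1.37, Snora43 (127 nt) 1.34, Snora57 3.84, Snora62 1.77, Snora64 2.07, Snora68 0.33, Snora69 3.76, Snora73b 1.11, Snora74a 3.39, Snora7a 0.64 and Snora9 2.09.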
